A study of Mus musculus with 24 samples.

Results

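The levels of 10 genes for proteins that meningeal fibroblasts are known to secrete were followed through 24 bulk RNA-seq libraries of mouse brain. They are the growth factors Bmp6 and Igf2, the carrier Igfbp2, the enzyme and lipid carrier Ptgds, the small leucine-rich proteoglycans Ogn, Lum and Dcn, the collagen-binding protein Aebp1, the hyaluronan-linked chain Itih2 and the ferroxidase Cp. They are 10 of the 40836 genes in the count table, and all 10 were among the 20437 genes that passed the filter on low counts. The genes were chosen from measured values: earlier results of these data had shown lower levels in E4 than in E3 libraries at time code 10. That contrast is therefore given below as a description, with no test.

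The library names give 6 groups of 4: E4-05, E4-10, E4-15, E3-05, E3-10 and E3-15. The first part is an E code and the second a time code. The series title names ApoE4, but the labels spell out neither code, and they give no strain, sex, age or treatment. Sample titles name 6 months, with January and February at time code 05, March and April at 10, and May and June at 15. Month and time code thus cannot be told apart in the comparisons over time. The titles call the samples biological replicates. Whether each is 1 animal is not stated, and the p-values therefore reflect the spread among these samples only, which may be technical.

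The meninges are the membranes that wrap the brain. Their fibroblasts make a collagen matrix and release growth factors, binding proteins and enzymes, some of them into the cerebrospinal fluid. Several of these proteins have other known sources: the choroid plexus, the tissue that makes cerebrospinal fluid, also makes IGF2, prostaglandin D2 synthase and ceruloplasmin, and oligodendrocytes also make prostaglandin D2 synthase. The label of the gene set thus names a main known source, not the only one.

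All 24 libraries were whole-tissue RNA, with 37.4 M to 99.5 M counts each. The 8 libraries whose column number in the table is a multiple of 3 were rich in cerebellum and hindbrain genes, and are called hindbrain-rich here: the summed level of 12 such markers was 1594 to 4528 CPM (counts scaled to the library total) there and 62.9 to 250.0 CPM in the other 16. They comprise 1 library each of E4-05, E3-05, E4-10 and E3-15 and 2 each of E3-10 and E4-15. Every fit below has a term for them. Markers of meningeal fibroblasts were present in every library: none of 20 such genes, the 10 secreted factors not among them, was at 0, and Col1a1, a fibrillar collagen chain, was at 15.0 to 40.3 CPM in the hindbrain-rich libraries and 9.45 to 37.1 CPM in the others. Choroid plexus markers were present too, with 13 genes summing to 799 to 4926 CPM in the hindbrain-rich libraries and 251 to 1896 CPM in the others. Ttr, the transthyretin of choroid plexus, ran from 289.6 to 2588 CPM and from 3.50 to 941 CPM in these sets.

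The promoters of Bmp6, Ptgds and Aebp1 are shown because the 2 pairs of members with the highest r, described further on, were Ptgds with Aebp1 and Ptgds with Bmp6. RefSeq promoter sequences (GRCm38.p6) were at hand for 8 of the 10 members. The 200 bases before the start are given 5′ to 3′ on the gene's strand, and capitals mark a match to 1 of 4 motifs searched on both strands. These were TATAAA (the TATA box, found in 9.96% of 32851 mouse promoter windows of this length), GGGCGG (the GC box, 31.0%), CCAAT (29.3%) and TGTTTAC (a forkhead site, 2.51%). The motifs do not overlap in these windows. The first 40 bases after the start lay in an annotated GENCODE transcript of Bmp6 and of Ptgds, but in none of Aebp1, so its start has no such check. Bmp6 lies on chr13:38345516-38345715 (plus strand), Ptgds on chr2:25469750-25469949 (minus strand) and Aebp1 on chr11:5861666-5861865 (plus strand).
Bmp6: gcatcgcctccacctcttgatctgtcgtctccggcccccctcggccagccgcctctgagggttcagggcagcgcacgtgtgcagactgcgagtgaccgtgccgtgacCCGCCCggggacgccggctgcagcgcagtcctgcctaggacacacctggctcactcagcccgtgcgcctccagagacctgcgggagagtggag
Ptgds: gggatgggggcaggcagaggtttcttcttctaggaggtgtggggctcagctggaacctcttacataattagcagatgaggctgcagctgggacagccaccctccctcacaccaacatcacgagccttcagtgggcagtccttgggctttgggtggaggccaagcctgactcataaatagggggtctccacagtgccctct
Aebp1: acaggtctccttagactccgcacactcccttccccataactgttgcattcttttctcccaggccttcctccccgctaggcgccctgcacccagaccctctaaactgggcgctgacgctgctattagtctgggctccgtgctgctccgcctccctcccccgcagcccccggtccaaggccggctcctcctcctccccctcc
The Bmp6 window held 1 GC box, on the other strand, with its first base 93 before the start. None of the 4 motifs was found in the Ptgds and Aebp1 windows, whose GC contents were 57.5% and 65.0%, against 70.0% for Bmp6. The motifs are thus not shared by the 3 windows.

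At time code 10 the secreted factors were lower in E4 than in E3 libraries, whatever their role. Log2 differences ran from -1.18 for Itih2 to -0.60 for Cp with a median of -0.82, beside a median of -0.002 over all genes, and 10 of 10 were negative. For 9 of the 10, all but Dcn, every E4-10 library lay below every E3-10 library. Over all genes, 1.31% were in that position, and since this contrast chose the members, nothing is read from their count. In bulk tissue, fewer cells of a type and less RNA per cell cannot be told apart.

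Bmp6, a bone morphogenetic protein that also sets hepcidin and so iron levels in liver, was at 14.4, 13.9, 13.0 and 17.1 CPM in E4-10 and at 25.6, 26.6, 21.4 and 29.8 CPM in E3-10. The groups did not overlap, and the gap between them was 21.4 against 17.1 CPM at its narrowest. The log2 difference was -0.77 (SE 0.14). At the other time codes the 2 E codes lay close: 21.8 ± 5.91 CPM in E4-05 and 19.0 ± 1.82 CPM in E3-05, then 18.4 ± 2.69 CPM in E4-15 and 15.6 ± 1.15 CPM in E3-15 (SD, n = 4 each). Bmp6 overlaps Txndc5 and 4930579J19Rik on the other strand. As the strand setting of the counting is not given in the sources used here, reads from these could not be told apart, and the same holds for Igf2 with Igf2os, Ogn with Cenpp and Cp with Hps3.

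Igf2, a fetal growth factor that stays active in adult meninges and choroid plexus, was at 106, 116, 87.1 and 145 CPM in E4-10 and at 222, 241, 181 and 293 CPM in E3-10, with no overlap (log2 difference -0.92, SE 0.20). Its binding protein Igfbp2, which carries IGFs outside the cell, was at 28.6, 37.7, 33.2 and 40.9 CPM in E4-10 and at 85.9, 63.9, 45.1 and 75.2 CPM in E3-10 (log2 difference -0.80, SE 0.20). For Igfbp2 the groups came close, with the highest E4-10 library at 40.9 CPM and the lowest E3-10 library at 45.1 CPM. At time code 05 both genes had 1 library far above the rest of its group, the hindbrain-rich library E4-05 3, at 292 CPM for Igf2 and 98.0 CPM for Igfbp2. Outside that library E4-05 ran from 137 to 162 CPM for Igf2 and from 33.6 to 53.0 CPM for Igfbp2.

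Ptgds, the prostaglandin D2 synthase that is also the beta-trace protein of cerebrospinal fluid, was at 486, 615, 427 and 412 CPM in E4-10 and at 916, 1044, 820.3 and 896 CPM in E3-10. The highest E4-10 library was the hindbrain-rich one, and it stayed below the lowest E3-10 library. The log2 difference was -0.87 (SE 0.18). Means were 719.6 ± 193 CPM in E4-05 and 642 ± 132 CPM in E3-05 (SD, n = 4 each). In E4-15 the mean was 631 ± 155 CPM, beside 522 ± 99.7 CPM in E3-15 (SD, n = 4 each).

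The 3 small leucine-rich proteoglycans, which bind collagen fibrils and set their width, differed in their spread. Ogn (osteoglycin) was at 11.7, 12.1, 9.26 and 9.71 CPM in E4-10 and at 19.7, 23.1, 18.4 and 21.0 CPM in E3-10, a wide gap with little spread in either group (log2 difference -0.90, SE 0.18). Lum (lumican) was at 2.33, 3.39, 1.96 and 2.39 CPM in E4-10 and at 5.17, 3.62, 4.52 and 6.02 CPM in E3-10 (log2 difference -0.82, SE 0.17). The Lum groups were close at their edges, where the hindbrain-rich E4-10 library at 3.39 CPM stood beside an E3-10 library at 3.62 CPM.

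Dcn (decorin) was at 34.3, 22.6, 14.0 and 13.3 CPM in E4-10 and at 32.1, 30.3, 35.2 and 40.4 CPM in E3-10. These groups overlapped through E4-10 1, and the log2 difference of -0.61 had the largest SE of the set, 0.33. With 1 library left out it ran from -1.01, without E4-10 1, to -0.47. Dcn also spread widely at time code 05, from 15.9 to 39.3 CPM in E4-05 and from 13.3 to 44.0 CPM in E3-05.

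Aebp1, a secreted protein that binds collagen and aids fibril assembly, was at 27.9, 30.9, 22.0 and 25.2 CPM in E4-10 and at 45.4, 54.1, 44.9 and 48.1 CPM in E3-10 (log2 difference -0.82, SE 0.18). Itih2, a heavy chain that is transferred to hyaluronan, had the largest log2 difference of the 10, at -1.18 (SE 0.21). It was at 2.77, 5.02, 2.81 and 2.99 CPM in E4-10 and at 9.05, 7.54, 5.90 and 11.3 CPM in E3-10. For both genes the highest E4-10 library was the hindbrain-rich library E4-10 2. Cp (ceruloplasmin), which oxidises iron and carries copper, was at 19.4, 21.0, 18.6 and 18.6 CPM in E4-10 and at 35.3, 31.5, 26.8 and 31.0 CPM in E3-10. Its log2 difference was -0.60 (SE 0.10), the smallest of the 10 and the one with the smallest SE.

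**Figure D1:**
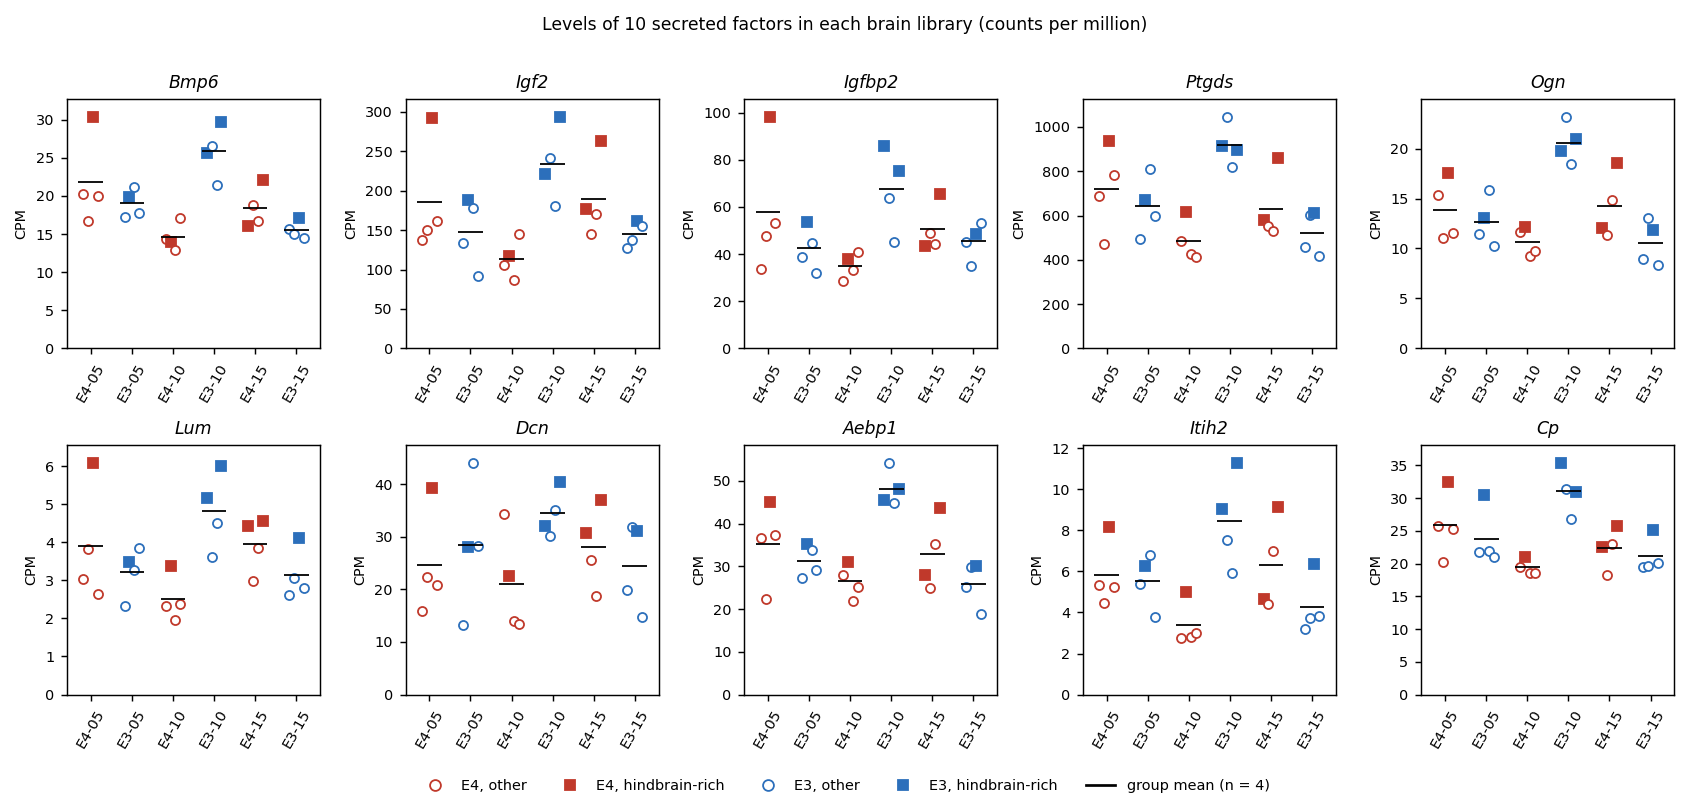
CPM of each of the 10 genes (y axis, from 0) in each library, by group (x axis). Red stands for E4 and blue for E3, filled squares mark hindbrain-rich libraries, open circles the others, and the line is the group mean (n = 4). E4-10 sits below E3-10 in every panel, without overlap except for Dcn, while E4 and E3 overlap at 05 and at 15 in every panel.

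Cell type markers moved with these values at time code 10. The 20 meningeal fibroblast markers summed to 244 to 290.3 CPM in E4-10 and 351 to 460.0 CPM in E3-10, 20 of 20 had a negative log2 difference, and their median was -0.61. For 9 of the 20, every E4-10 library lay below every E3-10 library. The 13 choroid plexus markers summed to 315 to 1801 CPM in E4-10 and 1095 to 3430 CPM in E3-10, with 13 of 13 negative and a median of -1.01. Mural cell markers, of the contractile cells of vessels, summed to 396 to 441 CPM in E4-10 and 414 to 548 CPM in E3-10, with 9 of 11 negative and a median of -0.20. Endothelial markers summed to 565 to 611 CPM in E4-10 and 509 to 709 CPM in E3-10, with 10 of 12 negative and a median of -0.14. Oligodendrocyte markers had 12 of 12 negative (median -0.24), as had cerebellum and hindbrain markers (median -0.44).

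Pituitary and blood genes set single libraries apart. The 4 pituitary markers were positive in 4 of 4 at time code 10 (median 4.04), with Gh, growth hormone, at 6099 CPM in E4-10 2 and at 7125 CPM in E3-05 4. Without these 2 libraries, an alternative chosen after seeing the data, the 10 log2 differences at time code 10 ran from -1.28 to -0.52 with a median of -0.82. The haemoglobin gene Hbb-bs was at 167 CPM in E4-05 1, and at 146 and 167 CPM in E3-05 1 and E3-05 2, the 3 libraries above 100 CPM.

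With the mean log2 level of the fibroblast markers as a covariate, an alternative chosen after seeing the data, the 10 log2 differences ran from -0.75 to -0.18 with a median of -0.43. Aebp1 stood at -0.25, Dcn at -0.18 and Ogn at -0.39, while Itih2 stood at -0.75, Igfbp2 at -0.67 and Lum at -0.65. With the choroid plexus mean in its place they ran from -1.16 to -0.54 with a median of -0.77, and Igfbp2 had the value nearest to 0. All 10 stayed negative in both.

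The other genes of the same pathways are described by lists of known family members. Of 12 other small leucine-rich proteoglycans kept by the filter, 9 had a negative log2 difference at time code 10, with a median of -0.51. Fmod (fibromodulin) stood at -0.89 (SE 0.21), Ecm2 at -0.28 (SE 0.15), and Epyc (epiphycan) at 0.63 (SE 0.50). Among 11 collagen partners of Aebp1, 10 were negative, with a median of -0.54. This list is not separate from the fibroblast markers, as Col1a1, Col1a2, Col3a1 and Fbln1 are in both. The 11 include Col1a2, a collagen I chain, at -0.62 (SE 0.22), and Lox, the collagen crosslinking oxidase, at -0.62 (SE 0.37). Fbln2 stood at -0.30 (SE 0.16) and the collagen chaperone Serpinh1 at -0.34 (SE 0.16).

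The signalling partners of the growth factors had medians nearer to 0. Of 13 genes of the IGF axis, 9 were negative with a median of -0.07, and H19, the non-coding neighbour of Igf2, stood at -1.10 (SE 0.42) on a mean of 1.12 CPM. Of 26 genes of the BMP axis, 17 were negative with a median of -0.04. Bmp7, a related ligand, stood at -0.54 (SE 0.13), Bmp5 at -0.30 (SE 0.30), and the signal transducer Smad9 at -0.37 (SE 0.16). Of 8 prostaglandin D2 genes 5 were negative (median -0.26), of 11 hyaluronan-linked genes 9 (median -0.07), and of 9 copper and iron genes 5 (median -0.01). Hpgds, the haematopoietic prostaglandin D synthase, stood at 0.31 (SE 0.21), and Itih5, a relative of Itih2, at -0.21 (SE 0.10).

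Outside time code 10 none of the secreted factors differed between E4 and E3 by the test. At time code 05 the E4 minus E3 differences were positive for 9 of 10 (median 0.15; all genes 0.005), and at time code 15 for 10 of 10 (median 0.20; all genes 0.003), against negative for all 10 at time code 10. Fewer were positive in 2 fits chosen after seeing the data: without the 3 libraries high in Hbb-bs 5 of 10 were positive at time code 05, and with the fibroblast marker mean as a covariate 6 of 10 at time code 05 and 5 of 10 at time code 15. The quasi-likelihood test of edgeR with Benjamini-Hochberg adjustment called 0 of 10 members and 0% of 20437 genes in either comparison. Before adjustment, 0 members and 549 genes had p below 0.05 at time code 05, and 2 members and 391 genes at time code 15. With limma-voom and with DESeq2 the calls were 0 members and 0 genes in either.

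At time code 15 the 2 members were Itih2 and Ogn. Itih2 was at 4.64, 4.41, 7.01 and 9.12 CPM in E4-15 and at 3.19, 3.74, 6.36 and 3.84 CPM in E3-15. Ogn was at 12.0, 11.4, 14.9 and 18.6 CPM in E4-15 and at 8.93, 13.1, 11.8 and 8.34 CPM in E3-15. In both genes the groups overlapped, and the highest library was E4-15 4. Their log2 differences were 0.45 (SE 0.21) and 0.38 (SE 0.18), with an edgeR adjusted p of 1 each. The 20 fibroblast markers were positive in 18 of 20 at time code 15 (median 0.33) and in 19 of 20 at time code 05 (median 0.13), with 0 of 20 called in either.

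The intervals left room for moderate changes. At time code 05 the 95% interval of the Igfbp2 difference, the largest at 0.41, ran from -0.01 to 0.83, and that of Cp, the most precise, from -0.07 to 0.32. At time code 15 the Cp interval ran from -0.19 to 0.21 and that of Dcn from -0.60 to 0.78. Whether the E4 minus E3 difference at time code 10 departs from that at 05 or 15 was not tested, as time code 10 chose the genes.

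**Figure D2:**
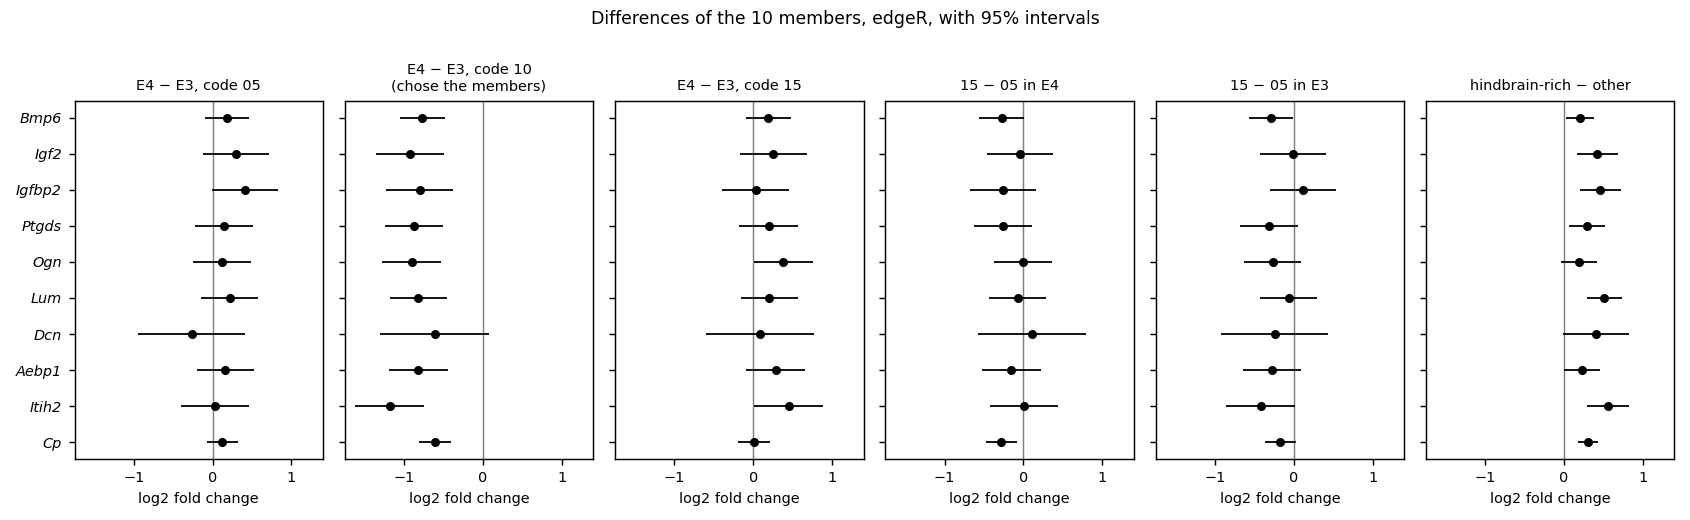
Log2 fold changes of the 10 genes (points, x axis) with 95% intervals from the edgeR fit, in 6 comparisons. At time code 10 all points lie between -1.18 and -0.60. At 05 and 15 they lie between -0.26 and 0.45, and the differences of the hindbrain-rich libraries all lie between 0.19 and 0.56.

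Between time codes 05 and 15 the secreted factors differed little, none past the test. Time code 10 is not in this comparison. For every member the mean CPM of E3-10 was the highest of the 6 groups. That of E4-10 was the lowest for all but Ogn and Aebp1, for which E3-15 was slightly lower. As time code 10 chose the genes, these means are a description. For time code 15 minus 05, 8 of 10 were negative in E4 (median -0.11; all genes -0.001) and 9 of 10 in E3 (median -0.26; all genes 0.006). The E4 count rested on single libraries: positive members numbered 2 in E4, but 6 without E4-05 3 and 4 each without E4-15 1 and without E4-15 2. They numbered 6 with the hindbrain-rich libraries left out, and 5 without the term for them. By the edgeR test 0 of 10 members were called in each, beside 0% of all genes. Before adjustment, 1 member and 1130 genes had p below 0.05 in E4 and 1 member and 557 genes in E3, while DESeq2 called 0 members with 5 and 6 genes, and limma-voom 0 members and 0 genes.

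The member in E4 was Cp, at 22.6, 18.2, 22.9 and 25.8 CPM in E4-15 and at 25.7, 20.2, 32.5 and 25.3 CPM in E4-05. These overlap, and the log2 difference was -0.28 (SE 0.09; edgeR adjusted p = 0.817). The member in E3 was Bmp6, at 15.6, 15.1, 17.2 and 14.5 CPM in E3-15 and at 17.3, 19.8, 21.2 and 17.8 CPM in E3-05. Here the highest E3-15 library, at 17.2 CPM, stood beside the lowest E3-05 library, at 17.3 CPM. How many of all genes had groups apart in this comparison was not counted. The log2 difference was -0.29 (SE 0.13; edgeR adjusted p = 1). The change from time code 05 to 15 did not differ detectably between E4 and E3. For the difference of the differences edgeR called 0 of 10 members and 0% of all genes. Before adjustment 0 members and 563 genes were below 0.05, and limma-voom and DESeq2 made 0 calls. The estimates ran from -0.38 for Igfbp2 (SE 0.28) to 0.43 for Itih2 (SE 0.29).

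In the hindbrain-rich libraries the secreted factors were higher. By edgeR's test 7 of 10 rose, 10 of 10 were positive, and the median log2 difference was 0.36, beside 0.04 over all genes. Of all genes 30.1% rose in this comparison. The 7 were Bmp6, Igf2, Igfbp2, Ptgds, Lum, Itih2 and Cp. Ogn, Dcn and Aebp1 did not pass, with edgeR adjusted p values of 0.138, 0.0906 and 0.0697.

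Lum and Itih2 had the largest differences. Lum ran from 3.39 to 6.08 CPM with a median of 4.49 CPM in the hindbrain-rich libraries, and from 1.96 to 4.52 CPM with a median of 3.01 CPM in the others. Its log2 difference was 0.51 (SE 0.11, edgeR adjusted p = 0.000292). Itih2 ran from 4.64 to 11.3 CPM (median 7.27) in the hindbrain-rich libraries and from 2.77 to 7.54 CPM (median 4.44) in the others, with a log2 difference of 0.56 (SE 0.13, edgeR adjusted p = 0.000674). The sets overlapped in both genes, where the highest of the other libraries, at 4.52 CPM for Lum and 7.54 CPM for Itih2, were E3-10 libraries.

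Cp ran from 21.0 to 35.3 CPM (median 28.1) in the hindbrain-rich libraries and from 18.2 to 31.5 CPM (median 20.6) in the others, with a log2 difference of 0.30 (SE 0.06, edgeR adjusted p = 0.000143). Igf2 and Igfbp2 rose together, by 0.42 (SE 0.12) and 0.46 (SE 0.12) on the log2 scale, with edgeR adjusted p values of 0.00606 and 0.00335. Ptgds rose by 0.29 (SE 0.11, edgeR adjusted p = 0.029) and Bmp6 by 0.20 (SE 0.08, edgeR adjusted p = 0.046). The Bmp6 call was at the edge: without E4-05 3, its highest library, the log2 difference was 0.10 with an edgeR adjusted p of 0.281.

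Choroid plexus markers moved with the hindbrain-rich libraries as well: 10 of 13 rose by edgeR's test, with a median log2 difference of 0.97. Among fibroblast markers 3 of 20 rose, Slc13a4, Col1a2 and Col3a1, and 1 fell, Pdgfra, which oligodendrocyte precursors also make. Their median was 0.10. With the choroid plexus mean as a covariate, an alternative chosen after seeing the data, 3 of the 10 secreted factors passed, namely Lum (0.53), Itih2 (0.55) and Cp (0.32). Igf2 stood at 0.20 and Igfbp2 at 0.22 in that fit, with edgeR adjusted p values of 0.209 and 0.158. With the fibroblast mean as the covariate 6 passed. The share of all genes called in these 2 fits is not given here, so nothing is read from either count.

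Family members went both ways between these sets of libraries, as did all genes, of which 30.1% rose and 27.4% fell. A family's share near these is no result about that family. Of the other small leucine-rich proteoglycans 4 of 12 rose, Prelp (log2 difference 0.23), Ecm2 (0.77), Nyx (1.10) and Chad (1.33), and 1 fell, Epyc (-2.56). In the IGF axis 6 of 13 rose and 2 fell. Pappa, a protease that frees IGF from binding proteins, rose by 1.97, H19 by 1.76 and Igfbp1 by 4.22 on a mean of 0.121 CPM, while Igfbp4 fell by 1.59 and Igfbp6 by 1.04. In the BMP axis 7 of 26 rose and 11 fell, with Bmp5 at 1.78, Smad9 at 0.99, the receptor Acvr2a at -0.61 and Bmp3 at -2.84.

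Of 8 other prostaglandin D2 genes 2 rose, Pla2g4a (0.39) and Hpgd (0.26), and 5 fell. Ptgs2, the inducible cyclooxygenase, fell by 2.68, Ptgs1 by 0.66, Hpgds by 0.98, the receptor Ptgdr by 0.61 and the prostacyclin synthase Ptgis by 0.52, whereas Ptgds rose. Of 11 hyaluronan-linked genes 3 rose, namely Itih3 (0.61), Itih5 (0.40) and the hyaluronan receptor Cd44 (0.88), and 1 fell, the link protein Hapln1 (-0.53). Of 9 copper and iron genes 2 rose, the copper exporters Atp7a (0.40) and Atp7b (0.64), and 1 fell, the ferritin light chain Ftl1 (-0.16). Among the collagen partners 5 of 11 rose and 1 fell. Serpinh1 stood at 0.40, Col1a2 at 0.48, Col3a1 at 0.43, Lox at 0.62, its relative Loxl1 at 0.33 and Fbln2 at -0.42.

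How far the secreted factors follow one another was measured over 11 libraries, those of time codes 05 and 15 other than the hindbrain-rich ones. These leave out the contrast that chose the genes. The 6 members Bmp6, Ptgds, Ogn, Aebp1, Itih2 and Cp had r values of 0.50 to 0.83 with one another. As deviations from group means these r values spread from 0.24 for Bmp6 and Itih2 to 0.81 for Bmp6 and Ptgds. Igf2 and Igfbp2 went with each other. Lum was only loosely tied to the rest, as was Dcn but for its r of 0.55 with Ptgds. Over the 45 pairs the median r of log2 CPM was 0.30, from -0.36 to 0.83, and 35 were positive. The median of the members' r with every other kept gene was -0.003.

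No pair passed the adjustment. At an unadjusted permutation p under 0.05 there were 13 of 45 pairs, and after Benjamini-Hochberg adjustment over the 45 pairs 0 for r and 0 for rho. The closest were Ptgds and Aebp1, with r = 0.83 (permutation p = 0.00144, adjusted p = 0.0513) and rho = 0.80 (permutation p = 0.00447, adjusted p = 0.0605). Without the 2 libraries farthest from the median of Ptgds, r was 0.82. Of all kept genes, 0.181% had a higher r with Ptgds than Aebp1 had. For Bmp6 and Ptgds, r was 0.82 (permutation p = 0.00228, adjusted p = 0.0513) and rho 0.78 (permutation p = 0.00615, adjusted p = 0.0605), and r was 0.67 without the 2 farthest libraries.

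Ogn came near the threshold with both Itih2 and Aebp1, and neither pair passed. Its r with Itih2 was 0.78 (permutation p = 0.00438, adjusted p = 0.0552) and rho 0.69 (permutation p = 0.0219, adjusted p = 0.141), and r was 0.73 without the 2 farthest libraries. With Aebp1 its r was 0.78 (permutation p = 0.00491, adjusted p = 0.0552) and rho 0.78 (permutation p = 0.0063, adjusted p = 0.0605), with 0.66 for r without the 2 farthest. Aebp1 and Cp had an r of 0.76 (permutation p = 0.00634, adjusted p = 0.0571) and a rho of 0.78 (permutation p = 0.00603, adjusted p = 0.0605), and r was 0.90 without the 2 farthest.

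Igf2 and Igfbp2, a factor and its carrier, had an r of 0.66 (permutation p = 0.0192, adjusted p = 0.129) and a rho of 0.53 (permutation p = 0.1, adjusted p = 0.265), and r was 0.54 without the 2 farthest libraries. Igf2 also went with Itih2 (r = 0.63). Taken as deviations from group means, this pair had an r of 0.85 (permutation test, adjusted p = 0.0265). It was the only pair to pass in that form. Igfbp2 had a negative r with 7 of the other 9 members, down to -0.36 with Aebp1. Lum and Dcn, of the same protein family, had an r of 0.44, and Lum had r values of -0.22 to 0.30 with the others. Dcn ran from -0.25 with Cp to 0.55 with Ptgds. Ogn had r values of 0.30 with Lum and 0.35 with Dcn.

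Leaving out 1 library changed some calls. Without E3-15 2, 3 pairs passed, Bmp6 and Ptgds (r = 0.94), Ogn and Itih2 (r = 0.89) and Ptgds and Aebp1 (r = 0.83). Without E4-15 3, the pair Ptgds and Aebp1 passed with r = 0.92. Over all 16 libraries other than the hindbrain-rich ones, which include the contrast that chose the genes, the median r was 0.61 and all 45 were positive.

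In the 8 hindbrain-rich libraries the r values were higher. There the median r was 0.86, from 0.58 for Dcn and Cp to 0.98 for Ptgds and Aebp1, and all 45 were positive. Igfbp2 had r values of 0.79 to 0.96 with the other members, among them 0.96 with Bmp6. These libraries span 6 groups, and 3 of them are of the contrast that chose the genes, so the values are a description with no test. The fibroblast and choroid plexus marker means had an r of 0.69 in these 8 libraries and of -0.60 in the 11 others.

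**Figure D3:**
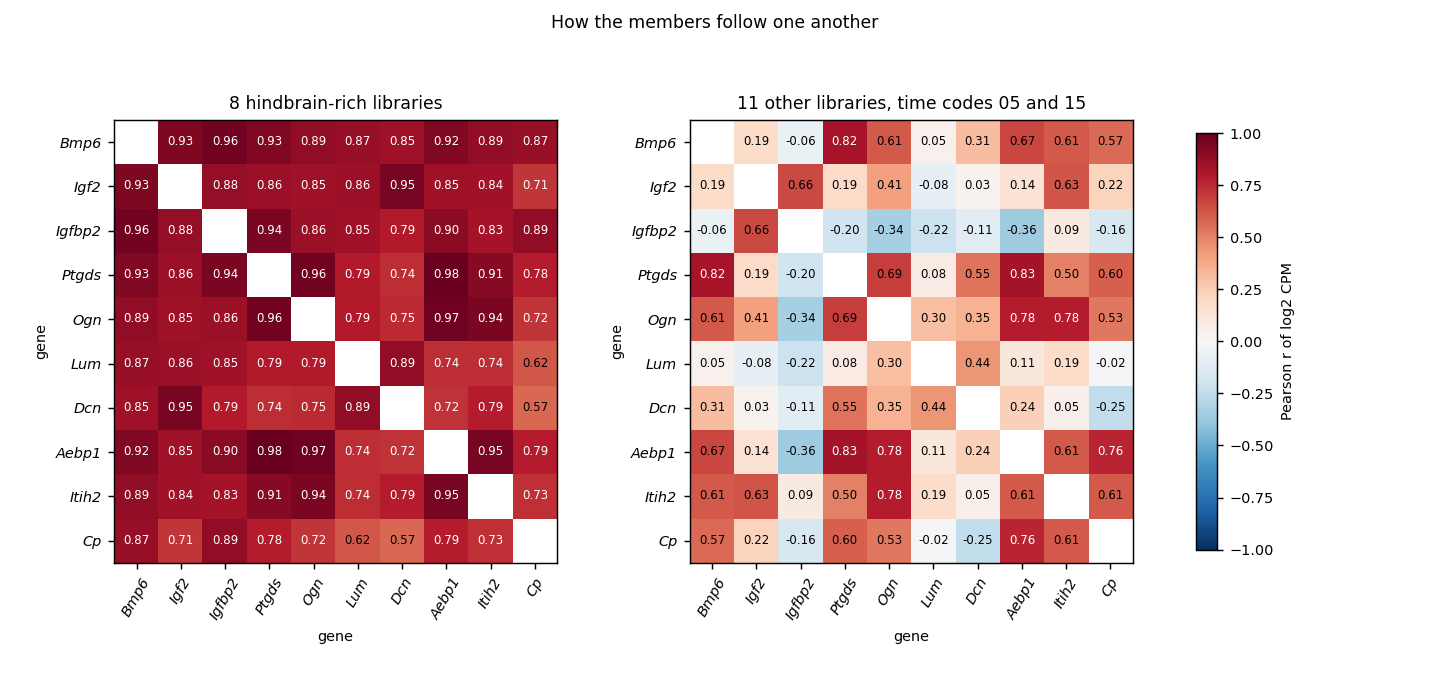
Pearson r of log2 CPM for each pair of the 10 genes (both axes), in the 8 hindbrain-rich libraries on the left and the 11 other libraries of time codes 05 and 15 on the right, with the colour scale from -1 to 1. The left panel is positive throughout, from 0.58 to 0.98, whereas on the right the Igfbp2 row is mostly below 0 and the Lum row near 0.

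**Figure D4:**
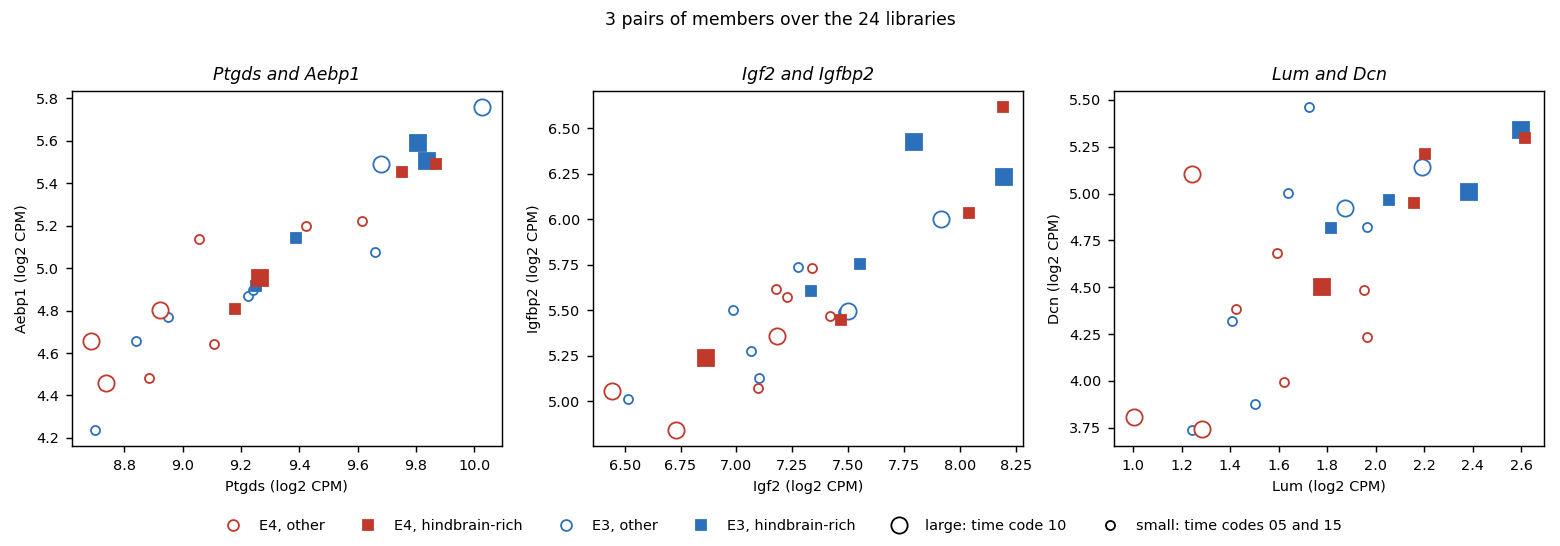
Log2 CPM of 3 pairs of genes over the 24 libraries, 1 point each, red for E4 and blue for E3, squares for hindbrain-rich libraries, large symbols for time code 10. Ptgds and Aebp1 lie along a line, Igf2 and Igfbp2 less tightly, and Lum and Dcn scatter, with r values of 0.83, 0.66 and 0.44 in the 11 libraries of time codes 05 and 15 other than the hindbrain-rich ones.

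Each member was also set against cell type marker means in those 11 libraries, and differences in r between members were not tested. In all 50 relations of 10 members with 5 marker means were tested, and 1 passed after Benjamini-Hochberg adjustment over the 50. Cp followed the mural cell mean, with r = 0.86 (permutation p = 0.00054, adjusted p = 0.027) and rho = 0.79 (permutation p = 0.00598, adjusted p = 0.112), and r was 0.80 without the 2 farthest libraries. The call was lost, with adjusted p values of 0.0547 to 0.123, when any 1 of 8 of the 11 libraries was left out: E4-05 1, E4-05 2, E4-15 2, E3-05 1, E3-05 3, E3-15 1, E3-15 2 and E3-15 4. The mural and fibroblast means themselves had an r of 0.86, so these 2 cannot be told apart here.

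Aebp1 had the highest r with the fibroblast mean, 0.81 (permutation p = 0.0027, adjusted p = 0.0608), with rho = 0.80 (permutation p = 0.00427, adjusted p = 0.112) and r = 0.79 without the 2 farthest. Cp (0.79), Ogn (0.74), Itih2 (0.72), Ptgds (0.64) and Bmp6 (0.54) came next. Igf2 (0.38), Lum (0.31), Dcn (0.15) and Igfbp2 (-0.16) had lower values here, whereas in the 8 hindbrain-rich libraries their r with the fibroblast mean was 0.91 for Igf2, 0.81 for Lum, 0.83 for Dcn and 0.81 for Igfbp2. Igfbp2 had its highest r with the choroid plexus mean, 0.74 (permutation p = 0.00831, adjusted p = 0.0608), with rho = 0.75 (permutation p = 0.0112, adjusted p = 0.112), and r fell to 0.35 without the 2 farthest libraries, on which it rests. With endothelial and oligodendrocyte means, r ran from -0.51 to 0.47.

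**Figure D5:**
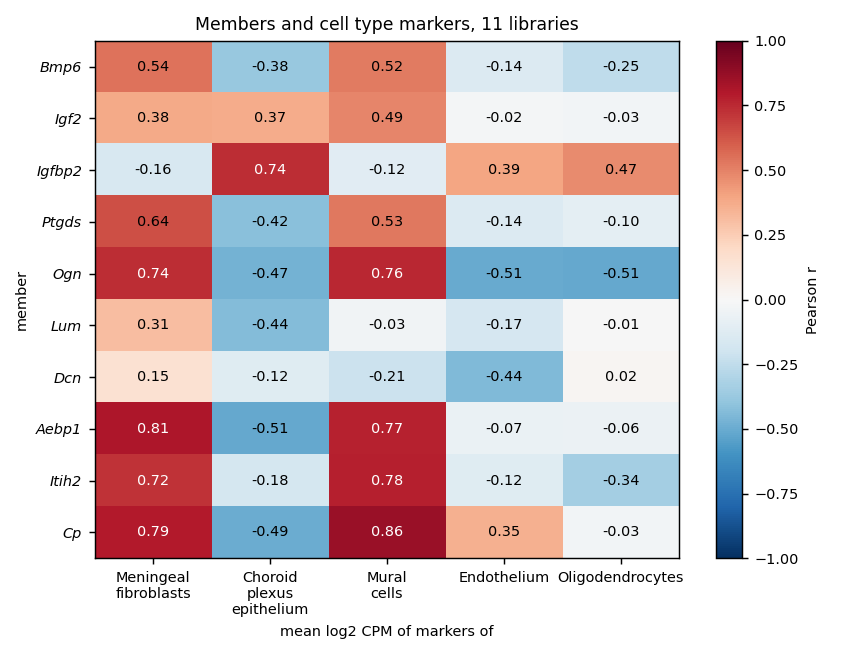
Pearson r of each of the 10 genes (y axis) with the mean log2 CPM of markers of 5 cell types (x axis), over 11 libraries. Bmp6, Ptgds, Ogn, Aebp1, Itih2 and Cp are between 0.52 and 0.86 for the fibroblast and mural means, Igfbp2 has 0.74 for choroid plexus and -0.16 for fibroblasts, and Lum and Dcn are at or below 0.31 throughout.

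The genes whose levels were most like each member were sought among 15076 genes over the 16 libraries other than the hindbrain-rich ones, by r of log2 CPM, as a description. These 16 libraries include the contrast that chose the members, which enters every r over them. Aebp1 had Slc13a3, a dicarboxylate transporter, at 0.97 and Bmp7 at 0.93. Ogn had Fmod at 0.96 and Slc22a6, an organic anion transporter, at 0.94. Cp had Ehd2, a caveolar protein, and the homeobox gene Alx4, both at 0.92. Dcn had Prdm11 at 0.91 and Nkd2, a Wnt antagonist, at 0.86.

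Igfbp2 had Sod3, the extracellular superoxide dismutase, at 0.90 and the cobalamin carrier Tcn2 at 0.82. Ptgds had Slc6a12, a betaine and GABA transporter, at 0.90 and the connexin Gjb2 at 0.89, and Itih2 had Slc6a12 at 0.88 and Cyp1b1 at 0.87. Bmp6 had Pln (phospholamban) at 0.88 and Bmp7 at 0.87. Igf2 had the amino acid transporter Slc6a20a at 0.87 and the sulfate transporter Slc13a4 at 0.86. Lum had the lowest values, with Crispld2 at 0.79 and Ripk1 at 0.75.

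The mean of the 10 standardized members was most like Fbln1 (0.93), Slc6a20a (0.91), Fmod (0.90), Colec12 (0.90) and Slc6a13 (0.90), followed by Serping1 (0.90), Myom1 (0.90), Slc6a12 (0.90), Notch2 (0.88) and Clec3b (0.88). Fbln1, Slc6a20a and Slc6a13 are among the 20 fibroblast markers. In the 11 libraries without time code 10, Fbln1 stood at 0.93, Slc6a12 at 0.92 and Slc6a13 at 0.91, while Slc6a20a stood at 0.74. The others lay between 0.74 for Notch2 and Clec3b and 0.88 for Fmod.

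By library, the extremes at time code 10 are set in part by the choice of the genes and are given as a description. E4-10 3 was among the 4 lowest libraries for all 10 members, E4-10 4 for 6 and E4-10 1 for 5. E3-10 4 was among the 4 highest for all 10, E3-10 1 for 8 and E3-10 2 for 6. At the other time codes, E3-15 4 was among the 4 lowest for 5 members and E3-15 1 for 4. There E4-05 3 was among the 4 highest for 9 members and E4-15 4 for 6. All but E3-10 2 of these high libraries were hindbrain-rich.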

How the data were processed

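Polyadenylated RNA of 24 mouse brain samples (TRIzol extraction, NovaSeq sequencing) was measured, per the labels' protocols. The submitters' processing notes name HISAT2 2.1.0, featureCounts 2.0.6 and mm39. The authors deposited unnormalized counts for each gene symbol, whole numbers with unequal totals. The annotation and strand setting are not given in the sources used here. Among counts from 1 to 19, 62.6% to 70.8% were even in each library, as when both reads of a pair are counted, so fragments may be fewer than counts.

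Counts were analysed in R 4.3.3 with edgeR 4.0.16: filterByExpr, TMM factors, a coefficient for each of 6 groups, a term for the hindbrain-rich libraries, and quasi-likelihood tests with 17 residual degrees of freedom, adjusted by Benjamini-Hochberg over 20437 genes (threshold 0.05). Correlations used log2 CPM (prior count 2) and two-sided permutation tests with 100000 resamples (numpy 2.4.6). Each test was run first on simulated data. CPM are counts scaled to the TMM-adjusted library total, and are not corrected for length, so levels of different genes are not compared. Library numbers showed no clear pairing of the samples (see the closing section). Alternatives were RLE factors, 2 other filters, DESeq2 1.42.0, limma-voom (limma 3.58.1), other terms and subsets of libraries; 4 were added after seeing the data.

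The 10 genes, the lists and the tests were chosen with earlier results of these data known. Genes named beside them were, per list, up to 4 with the smallest p among those called, the 2 most alike for each member, and the 10 most like their mean. Others named to complete a count, and single cell type markers, were chosen after their values were seen. Tf, of the copper and iron list, was not used here. Promoters are those of RefSeq (GRCm38.p6).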

Additional observations from a re-analysis of the deposited data

Results flagged for a closer look

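Of 60 sets of 4 libraries (10 genes in 6 groups), 5 had a library standing apart by Dixon's ratio, where chance gives about 1 in 20. In each the library was the highest of its group and a hindbrain-rich library. Igf2 was at 292 CPM in E4-05 3, with 137 to 162 CPM in the other 3 libraries of its group. Ptgds was at 862 CPM in E4-15 4, with 532 to 579.9 CPM in the others. Itih2 was at 5.02 CPM in E4-10 2, with 2.77 to 2.99 CPM in the others. Cp was at 30.5 CPM in E3-05 2, with 21.0 to 21.9 CPM in the others, and at 25.2 CPM in E3-15 3, with 19.4 to 20.1 CPM in the others.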

How the results depend on the processing

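With a replicate block, 0 members were called in the 5 comparisons of E and time codes, and 6 rather than 7 for the hindbrain-rich libraries, where Bmp6 lost its call (edgeR adjusted p = 0.0619). Library numbers showed no clear pairing of the samples. After removing groups and the hindbrain term, libraries with the same number had a median correlation of -0.015 and others 0.013. These medians pool all groups and time codes, so they cannot exclude a pairing of E4 with E3 within a time code. Within a time code, 10 of 24 libraries correlated best with their own number, among 4 candidates each. That count was 3 with the choroid plexus mean as a covariate, and 5 to 9 without 1 library. The counts of 0 stayed 0 in every alternative run, and the log2 differences at time code 10 stayed negative in all. The number of correlated pairs, 0, was 1 for deviations from group means, 30 over all 16 libraries and 0 to 3 without 1 library. The number of relations with marker means, 1, was 3, 15 and 0 to 2 in the same order. Nothing is read from the counts for deviations, as that permutation took no account of the group means removed and its p can be too low. Bmp6 and Igfbp2 had an r of -0.06 in the 11 libraries and of 0.54 over all 16, which hold the contrast that chose the genes; the cause was not tested. Having 4 libraries a group limits the precision, and the lowest count of a member in a library was 95. The comparison of hindbrain-rich libraries has no value in fits without that term.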

Other observations

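The 11 mural cell markers did not move as 1 set at time code 10. The grouping below and the genes named at time code 15 were chosen after their values were seen, and those values are a description. The contractile genes of smooth muscle were lower in E4-10 than in E3-10, with log2 differences of -1.16 (SE 0.21) for Acta2, -0.98 (SE 0.20) for Myh11, -1.13 (SE 0.16) for Lmod1 and -1.89 (SE 0.49) for Cnn1. The pericyte genes Rgs5 and Pdgfrb stood at 0.04 (SE 0.10) and -0.15 (SE 0.13). Among the remaining mural markers Vtn was lower, at -0.41 (SE 0.09). Abcc9 stood at -0.20 (SE 0.13), Kcnj8 at -0.18 (SE 0.19), Notch3 at -0.05 (SE 0.10) and Higd1b at 0.32 (SE 0.21). At time code 15 Acta2 stood at 0.42 (SE 0.21) and Lmod1 at 0.43 (SE 0.16), and neither passed edgeR's test (adjusted p = 1 each).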
